A study of Mus musculus with 16 samples.

Results

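Csrp3 encodes muscle LIM protein, a small Z-disc protein, and it was described here together with 9 genes whose products sit on titin or share its place in the sensing of mechanical load: the muscle ankyrin repeat genes Ankrd1, Ankrd2 and Ankrd23, the Xin genes Xirp1 and Xirp2, the LIM gene Fhl1, the small heat shock gene Cryab, titin itself (Ttn) and telethonin (Tcap). These are 10 of the 55471 genes in the table, and all of them passed the filter on low counts that left 14331 genes for testing. Csrp3 was selected on its low p-value between the genotype labels, and the other 9 genes for their role, so the label difference of Csrp3 is given below as a description with no test. The data are bulk mRNA-seq of skeletal muscle from 16 male mice fed a high-fat diet (60% of kcal from lipids) for 12 weeks, of which 10 are labelled Npr1+/- and 6 are their Npr1+/+ littermates. The design text gives an age of 12 weeks, without saying whether before or after the diet, and the allele came from B6.129-Npr1tm1Gar/J mice crossed back to C57BL/6J for 10 generations or more. The allele affects the natriuretic peptide receptor GCA in the whole body and not in muscle alone, and which muscle was sequenced is not given in the sources used here.

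Titin is a giant elastic protein that spans the sarcomere from the Z-disc, where telethonin ties its end, to the M-band. Proteins bound along it, such as muscle LIM protein at the Z-disc, the ankyrin repeat proteins in the spring region and the small heat shock protein alpha-B-crystallin, are known to respond to stretch or to shield the filament, and several of them can also move to the nucleus. In muscle and heart, Csrp3, the ankyrin repeat genes and the Xin genes are known for being induced by overload, injury or eccentric contraction.

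Each library is from 1 mouse by its labels, and the mice were spread over 4 cages that each held both labels. Library totals ran from 15832624 to 59682677 counts in the libraries labelled Npr1+/- and from 15273472 to 29630298 in those labelled Npr1+/+. The targeted gene was not lower in the libraries labelled Npr1+/-: Npr1 stood at 13.6 ± 3.87 CPM (SD, n = 10) there and at 12.2 ± 1.05 CPM (SD, n = 6) in the others, a log2 fold change of 0.09 (SE 0.199; adjusted p = 1, edgeR), so all directions below are between libraries as labelled. CPM here is a count relative to the TMM-scaled size of its library. Skeletal muscle was clear in every library, since the 12 fast fibre markers together made 115000 to 174000 CPM, whereas the 11 slow fibre markers made 218 to 387 CPM. The 9 cardiac markers together made 19.8 to 38.1 CPM. Of these, Nppb and Myl7 were at 0 in all 16 libraries, and the others had means above 0 in both labels. In whole muscle, fewer cells of a type and less mRNA per cell cannot be told apart.

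RefSeq start sites (GRCm38.p6) were found for 7 of the 10 genes, and the 250 bases before the start of Csrp3, of 2 ankyrin repeat genes and of Ttn are shown because the levels of these genes are compared below. They are written 5′ to 3′ on the strand of the gene, all but Ankrd2 on the minus strand, and capitals mark matches to the E-box (CANNTG, the site of MyoD-type factors), to the MCAT element (CATTCC or GGAATG, the site of TEAD factors) or to a MEF2 element, each searched on both strands.
Csrp3, chr7:48848052-48848301: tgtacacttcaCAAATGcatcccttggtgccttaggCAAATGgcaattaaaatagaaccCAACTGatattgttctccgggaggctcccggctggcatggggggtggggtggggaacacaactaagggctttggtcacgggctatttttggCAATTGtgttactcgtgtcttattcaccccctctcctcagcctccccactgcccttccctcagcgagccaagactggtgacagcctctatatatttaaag
Ankrd2, chr19:42035777-42036026: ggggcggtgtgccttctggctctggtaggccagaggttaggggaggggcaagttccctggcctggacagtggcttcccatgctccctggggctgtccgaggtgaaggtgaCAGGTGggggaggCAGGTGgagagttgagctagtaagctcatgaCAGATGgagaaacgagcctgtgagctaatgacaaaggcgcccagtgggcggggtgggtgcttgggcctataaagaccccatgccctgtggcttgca
Ankrd1, chr19:36119845-36120094: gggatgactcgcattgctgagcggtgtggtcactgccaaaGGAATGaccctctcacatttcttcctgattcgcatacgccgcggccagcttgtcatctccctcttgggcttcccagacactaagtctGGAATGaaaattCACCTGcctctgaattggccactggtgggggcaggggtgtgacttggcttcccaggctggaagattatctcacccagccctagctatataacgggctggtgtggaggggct
Ttn, chr2:76982548-76982797: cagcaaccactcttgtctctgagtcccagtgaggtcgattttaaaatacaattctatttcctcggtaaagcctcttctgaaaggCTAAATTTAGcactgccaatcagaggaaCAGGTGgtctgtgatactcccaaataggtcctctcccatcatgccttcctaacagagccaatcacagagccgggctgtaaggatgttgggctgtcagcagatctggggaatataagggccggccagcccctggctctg
The Csrp3 window holds 4 E-boxes, at 239, 214, 191 and 100 bases before the start, and its other RefSeq start site, at chr7:48843672-48843921, holds 4 as well. The Ankrd2 window holds 3, the Ankrd1 window 1 E-box and 2 MCAT elements, and the Ttn window 1 E-box and 1 MEF2 element, and no match overlaps another in these windows. E-boxes are common: 66.2% of all 32851 RefSeq windows of this length hold at least 1, against 12.6% for MCAT, 2.92% for MEF2 and 1.47% for the CArG box of serum response factor. Of the windows not shown, one of the 2 Fhl1 windows holds a CArG box, the Xirp2 window a MEF2 element and one of the 2 Ankrd23 windows an MCAT element. A match of letters is a description of the sequence and not a measured binding site.

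Per kilobase of gene length the 10 genes covered a wide range of levels. Tcap, the short gene of telethonin, was highest at 3910 ± 752 CPM per kilobase (SD, n = 16). Cryab followed at 419 ± 83.8, Ankrd23 at 369 ± 113, Fhl1 at 275 ± 77.9 and Xirp2 at 129 ± 62.4 CPM per kilobase (SD, n = 16 each). Ankrd2 stood at 65 ± 17 and Ttn at 30.5 ± 34.1 CPM per kilobase, and the lowest were Xirp1 at 13.5 ± 9.22, Csrp3 at 11.7 ± 4.56 and Ankrd1 at 4.96 ± 1.55. Neighbours in this order kept it in 13 to 16 of the 16 libraries, except that Xirp1 was above Csrp3 in only 7 libraries, so the order of these 2 is not set. Of the ankyrin repeat genes, Ankrd23 was thus the one with the most mRNA in this muscle and Ankrd1, best known from heart, the one with the least.

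Csrp3 (ENSMUSG00000030470, chr7:48830398-48848033, minus strand, GRCm38) was lower in the libraries labelled Npr1+/-. It ran from 16.5 CPM through a median of 25.7 to 36.2 CPM in the 10 libraries labelled Npr1+/-, and from 27.6 through 36.8 to 62.1 CPM in the 6 labelled Npr1+/+. The labels overlapped between 27.6 and 36.2 CPM, and the means were 25.4 ± 6.71 (SD, n = 10) and 40.7 ± 13.7 CPM (SD, n = 6). With cage and body weight in the model, the log2 fold change of Csrp3 was -0.87 (SE 0.19). Within cages the size of the Csrp3 difference varied. In cage 675 the libraries labelled Npr1+/- had 26.5 and 22.5 CPM of Csrp3 against 27.6 and 33.6 CPM in those labelled Npr1+/+, and in cage 677 the single one had 30.1 CPM against 40 and 28.9 CPM. In cage 676 the 3 libraries labelled Npr1+/- had 26.0, 34.1 and 36.2 CPM against 62.1 CPM, and in cage 678 the 4 had 17.3, 16.5, 19.5 and 25.4 CPM against 51.9 CPM. On the log2 scale this is -0.32, -0.18, -0.96 and -1.42 in cages 675, 677, 676 and 678, with overlap of the labels in cage 677 and a single library labelled Npr1+/+ in cages 676 and 678. Since Csrp3 was chosen from a model with cage in it, a shared sign over cages is no separate support. Without the library of cage 678 labelled Npr1+/+ (replicate 4), the log2 fold change was -0.55.

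The ankyrin repeat genes, whose products bind the titin spring and travel to the nucleus, gave unlike values between the labels, with Ankrd2 the most different. Ankrd2 (ENSMUSG00000025172, chr19:42036000-42045110, plus strand) ran from 53.6 through a median of 63.6 to 94.0 CPM in the libraries labelled Npr1+/- and from 62.8 through 76.0 to 130 CPM in those labelled Npr1+/+. Most of the libraries labelled Npr1+/- were low in Ankrd2, with wide overlap between the labels, and the log2 fold change of -0.47 (SE 0.154) had an unadjusted p of 0.00707 in edgeR and an adjusted p of 1. Ankrd2 was lower in cages 676 and 678, by -0.79 and -0.65 on the log2 scale, but not in cages 675 and 677, at 0.02 and 0.17. Ankrd1 (ENSMUSG00000024803, chr19:36111961-36119910, minus strand) ran from 6.55 through 12.5 to 21.8 CPM against 11.4 through 15 to 20.6 CPM, a log2 fold change of -0.18 (SE 0.279). Ankrd23 (ENSMUSG00000067653, chr1:36530188-36536521, minus strand) ran from 491 through 931 to 1720 CPM against 811 through 991 to 1530 CPM, a log2 fold change of -0.04 (SE 0.259). For Ankrd1 and Ankrd23 the labels overlapped almost fully and the adjusted p was 1. Ankrd23 shares 2109 exon bases with the predicted gene Gm42417 on the same strand, which holds 18 counts in all libraries together. How the counting treated reads over both genes is not given in the sources used here. The 18 counts therefore do not show how many Ankrd23 reads were affected.

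Fhl1, a LIM-domain protein that binds titin, was the other member with most libraries on different sides. Fhl1 (ENSMUSG00000023092, chrX:56731787-56793346, plus strand) ran from 699 through a median of 867 to 1250 CPM in the libraries labelled Npr1+/- and from 968 through 1160 to 1850 CPM in those labelled Npr1+/+. Only 1 library labelled Npr1+/-, replicate 9 at 1250 CPM, reached into the range of the others. The log2 fold change of Fhl1 was -0.41 (SE 0.172; unadjusted p = 0.0281, adjusted p = 1, edgeR). Within cages it was -0.51, -0.54, -0.69 and -0.27 in cages 675 to 678.

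Cryab and Tcap, 2 short and abundant genes, differed by less than the spread between libraries. Cryab (ENSMUSG00000032060, chr9:50751325-50756359, plus strand), the gene of alpha-B-crystallin, ran from 444 through 569 to 876 CPM against 523 through 620 to 817 CPM, a log2 fold change of -0.25 (SE 0.169). It shares 252 exon bases with Hspb2 on the opposite strand, and whether the counting used the strand is not given in the sources used here. Tcap (ENSMUSG00000007877, chr11:98383811-98384953, plus strand) ran from 2540 through 3760 to 4580 CPM against 2810 through 3960 to 4810 CPM, a log2 fold change of -0.20 (SE 0.188). The adjusted p was 1 for both in edgeR.

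The actin-binding Xin genes and titin itself did not follow Csrp3 but stood out by their spread among the libraries labelled Npr1+/-. Xirp1 (ENSMUSG00000079243, chr9:120013755-120023598, minus strand) ran from 27.9 through 91.3 to 233 CPM in the libraries labelled Npr1+/- and only from 46.5 through 51.7 to 62.6 CPM in those labelled Npr1+/+. Its 6 highest values were all in libraries labelled Npr1+/-, and so were its 3 lowest. The log2 fold change of Xirp1 was 0.51 (SE 0.41; adjusted p = 1, edgeR). Xirp2 (ENSMUSG00000027022, chr2:67173834-67526615, plus strand) ran from 585 through 1920 to 3800 CPM against 870 through 1700 to 2370 CPM, with a log2 fold change of -0.13 (SE 0.377). Ttn (ENSMUSG00000051747, chr2:76703980-76982455, minus strand) ran from 621 through 2860 to 15900 CPM against 1090 through 2410 to 3790 CPM, a log2 fold change of 0.55 (SE 0.688), and both had an adjusted p of 1. For these 3 genes the SE exceeded or came near to the difference, and the sign for Ttn and Xirp2 turned without replicate 4 labelled Npr1+/+ (Ttn, to -0.0089) and without replicate 5 labelled Npr1+/+ or 10 labelled Npr1+/- (Xirp2, to 0.43 and 0.06).

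**Figure D1:**
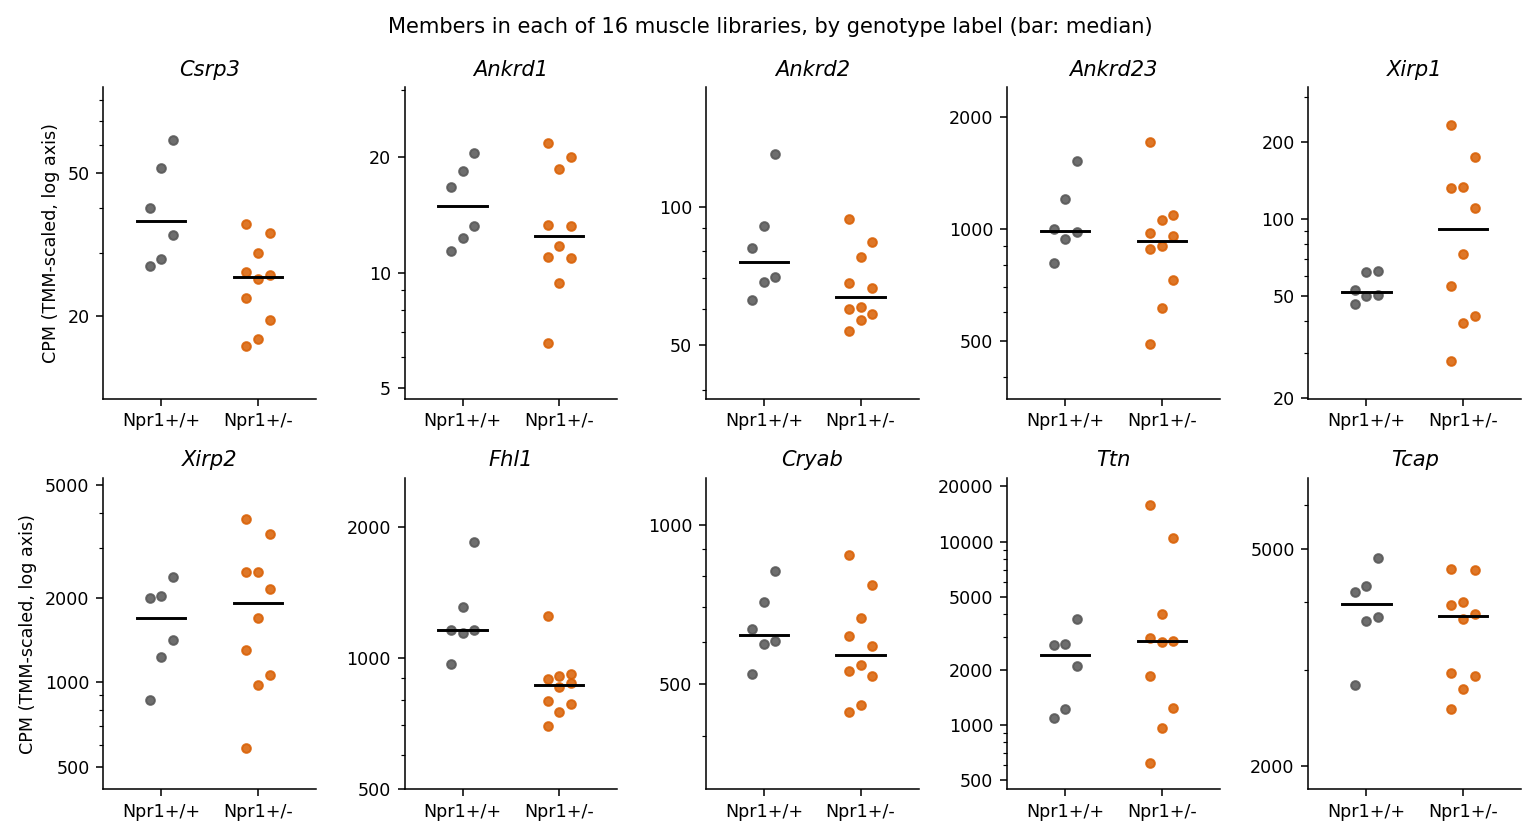
CPM of the 10 genes (log axes, 1 panel a gene) in the 6 libraries labelled Npr1+/+ (grey) and the 10 labelled Npr1+/- (orange), 1 point a library and the bar at the median. Csrp3 medians are 36.8 and 25.7 CPM with overlap, Fhl1 overlaps only through 1 orange point at 1250 CPM, and the orange points of Ttn reach from 621 to 15900 CPM.

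Over all 14331 genes, 0% had an adjusted p under 0.05 between the labels and 1.05% an unadjusted p under 0.05, with 0.509% lower in the libraries labelled Npr1+/-; DESeq2 called 6 genes. Of the 10 members, 0 passed the adjusted threshold, also by DESeq2, and 3 passed unadjusted, all of them lower: Csrp3, which this contrast chose, Ankrd2 and Fhl1. In sign, 8 of the 10 members were lower and 2 higher (Xirp1 and Ttn), with a median log2 fold change of -0.19, where 7389 of all genes tested were lower and 6942 higher with a median of -0.01.

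**Figure D2:**
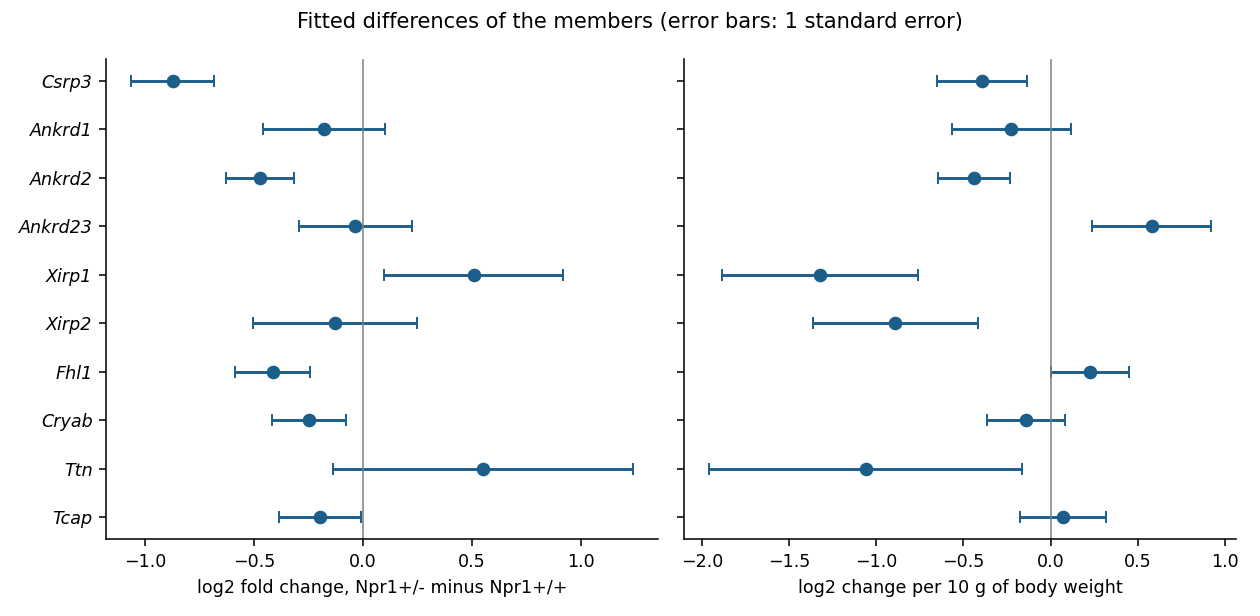
Fitted log2 fold change between the labels (left) and fitted log2 change per 10 g of body weight (right) of the 10 genes, from 1 model with label, cage and weight in 16 libraries; points are estimates and bars 1 standard error. Csrp3 lies at -0.87 on the left, and Xirp1 at -1.32 on the right with the widest bar after Ttn.

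Genes of the same structures, listed with earlier results of these data known, had no member past the adjusted threshold between the labels. Of 27 Z-disc genes, 16 were lower and 11 higher with a median log2 fold change of -0.05, and 1 passed an unadjusted p of 0.05: Capza1, an actin-capping subunit, at 6.01 ± 2.30 (SD, n = 10) against 9.01 ± 1.88 CPM (SD, n = 6), log2 fold change -0.70 (SE 0.199). Lmcd1, a LIM protein, was next at -0.30. Of 14 M-band and titin kinase genes, 5 were lower and 9 higher with a median of 0.01 and 0 past an unadjusted p of 0.05 (the ubiquitin ligase Trim55 was at -0.12). Of 10 small heat shock and chaperone genes, 8 were lower and 2 higher with a median of -0.05, led by Hspb6 at -0.35 (unadjusted p = 0.0339, adjusted p = 1, edgeR) and Hspb7 at -0.30. Of 18 stretch-response genes of SRF, MRTF and YAP, 8 were lower and 10 higher with a median of 0.04, led by Ccn2, a matrix protein induced by YAP, at 0.65 (unadjusted p = 0.0391, adjusted p = 1, edgeR), and by cardiac actin, Actc1, at -0.51. The lists thus stood near the median of all genes.

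Marker levels of fibre types and other muscle cells are given beside the Csrp3 difference, and their part in it was not tested. The summed slow fibre markers ran from 218 through 273 to 368 CPM in the libraries labelled Npr1+/- and from 257 through 328 to 387 CPM in those labelled Npr1+/+. Of the 11, 8 were lower and 3 higher, with a median log2 fold change of -0.11. Only 1 of them passed an unadjusted p of 0.05, and it was named after its value was seen. This was Casq2, the slow and cardiac calsequestrin, at 60.7 ± 23.1 (SD, n = 10) against 123 ± 34.5 CPM (SD, n = 6), log2 fold change -0.95 (SE 0.248; unadjusted p = 0.00144, adjusted p = 1, edgeR). The fast fibre sum was 115000 to 174000 against 117000 to 154000 CPM, the sum of 10 regeneration and denervation markers 45.3 to 71.5 against 41.0 to 64.8 CPM, and that of 9 cardiac markers 19.8 to 38.1 against 25.4 to 33.8 CPM. Over the 16 libraries, with label means subtracted, Csrp3 had r = 0.24 with the slow, 0.15 with the fast, -0.17 with the regeneration and 0.20 with the tendon and matrix markers, and 0 of these 4 passed an adjusted p of 0.05 over 40 such relations in a permutation test, with unadjusted p from 0.388 to 0.584.

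The widest contrast among the 10 genes lay between libraries and not between labels. The SD of log2 CPM over the 16 libraries was 1.22 for Ttn, which 99.2% of the genes tested did not reach, 0.86 for Xirp1 and 0.74 for Xirp2, with ratios of the highest to the lowest library of 25.6, 8.36 and 6.49. For Csrp3 the SD was 0.52 and the ratio 3.77, and for Tcap and Cryab, the steadiest, the SD was 0.29 and 0.28 and the ratio 1.90 and 1.97, where the median SD of all genes was 0.38. Replicates 7 and 6 labelled Npr1+/- stood apart, with 15900 and 10400 CPM of Ttn, whereas the other 14 libraries ran from 621 to 4020 CPM. Ttn alone took 1.57% and 1.06% of all counts in these 2 libraries.

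The same 2 libraries held more counts of long genes in general. The share of counts in the 1583 other genes of 10000 bases or more was 11.8% in replicate 7 and 9.69% in replicate 6, against 4.68% to 9.08% in the other 14 libraries. Set against the other 8 libraries labelled Npr1+/-, replicates 6 and 7 had a median log2 difference of -0.52 over 2582 genes under 2000 bases, -0.07 over 6007 genes of 2000 to under 5000, 0.35 over 4437 genes of 5000 to under 10000, 0.70 over 1200 genes of 10000 to under 20000 and 1.02 over 105 genes of 20000 bases or more. The members followed this order of length in part. Ttn, of 117334 bases, was higher by 2.81, which the choice of these 2 libraries for their Ttn fixed. Neb, the gene of the giant protein nebulin, was at 2.38, also above the median of this class. Xirp1, of 6230 bases, was higher by 1.62, also above its class, with Nrap at 1.69 and Myom2 at 1.52, while Xirp2, of 14378 bases, was near its class at 0.81. Tcap at -0.51, Cryab at -0.37 and Ankrd2 at -0.10 are genes under 2000 bases. Ankrd23 at -0.88, Ankrd1 at -0.43, Csrp3 at -0.29 and Fhl1 at -0.07 are of 2000 to under 5000 bases. The source of this gradient was not tested.

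**Figure D3:**
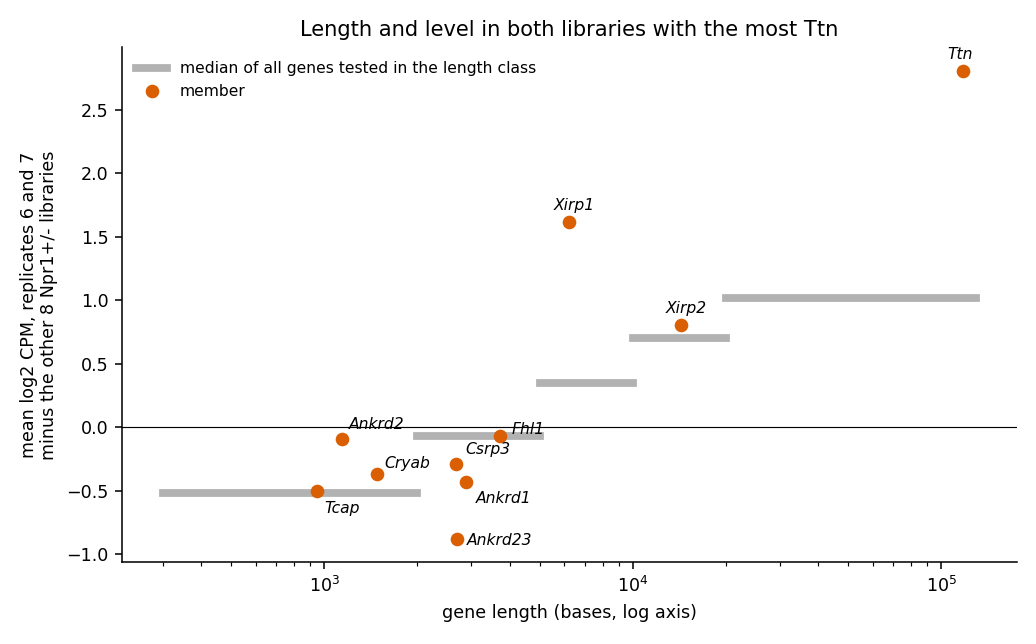
Mean log2 CPM of replicates 6 and 7 minus that of the other 8 libraries labelled Npr1+/- (vertical) against gene length (log axis), with members as orange points and the median of all genes of each length class as a grey bar. The grey bars climb from -0.52 to 1.02; Ttn at 2.81, by which the 2 libraries were chosen, and Xirp1 at 1.62 lie above theirs, and Ankrd23 at -0.88 below.

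Over all 16 libraries, with label means subtracted, the share of counts in long genes moved with 6 of the 10 members. This set of 10 relations was chosen after the data were seen. How many of all genes tested moved with that share was not computed, so the count cannot be read as particular to the members. It rose with Ttn (r = 0.79, rho = 0.64, permutation p = 0.00131, adjusted p = 0.00342), with Xirp2 (r = 0.79, rho = 0.76, permutation p = 0.00103, adjusted p = 0.00342) and with Xirp1 (r = 0.74, rho = 0.64, permutation p = 0.00846, adjusted p = 0.0169). It fell with Ankrd23 (r = -0.83, rho = -0.81, permutation p = 0.00012, adjusted p = 0.0012), with Tcap (r = -0.76, rho = -0.80, permutation p = 0.00137, adjusted p = 0.00342) and with Cryab (r = -0.66, rho = -0.66, permutation p = 0.0124, adjusted p = 0.0206). Without the 2 libraries farthest in the member, r was 0.59, 0.71, 0.69, -0.76, -0.70 and -0.56 in this order. For Csrp3 (r = -0.32), Ankrd1 (-0.01), Ankrd2 (-0.16) and Fhl1 (-0.18) the adjusted p ran from 0.315 to 0.977. With this share as a covariate, the log2 fold change between the labels was -0.82 for Csrp3, -0.46 for Ankrd2 and -0.38 for Fhl1, and 0.09 for Xirp1 and 0.14 for Ankrd23.

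**Figure D4:**
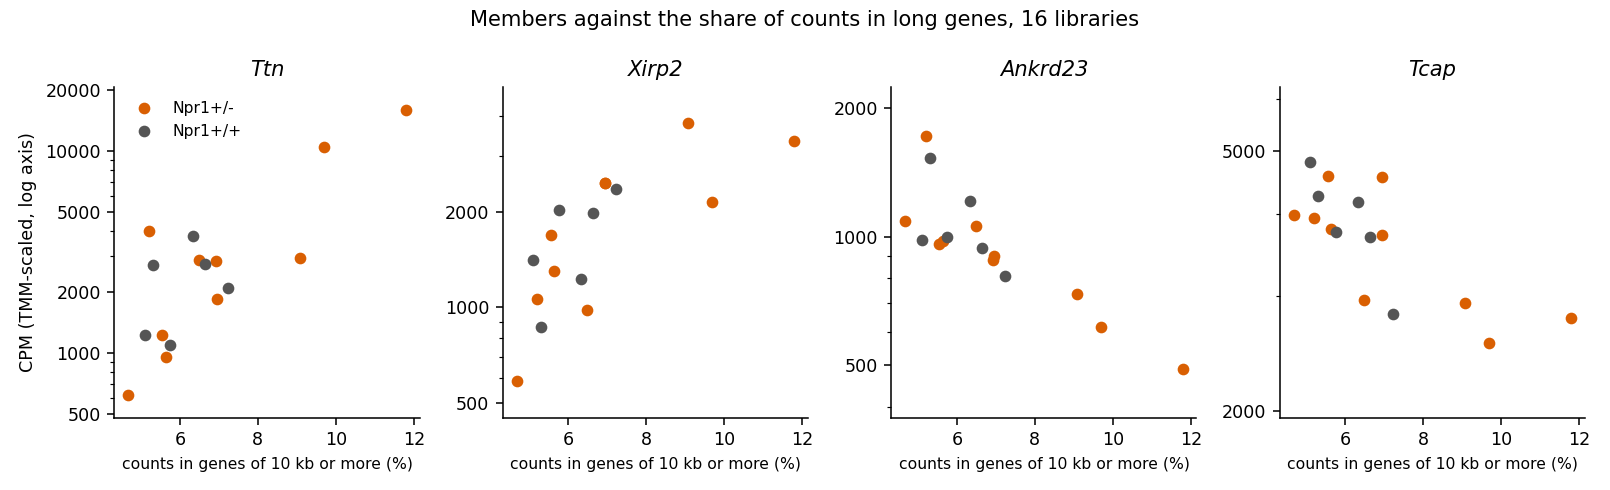
CPM of Ttn, Xirp2, Ankrd23 and Tcap (log axes) against the percent of counts in genes of 10 kb or more, Ttn and Xirp2 not counted in it, in libraries labelled Npr1+/- (orange) and Npr1+/+ (grey). Ttn and Xirp2 climb along the axis from 4.68% to 11.8%, and Ankrd23 and Tcap fall.

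Between the members themselves, 3 of 45 pairs passed an adjusted p of 0.05 over the libraries, with label means subtracted, and all 3 were inverse. Cryab and Ttn had r = -0.83 (rho = -0.82, permutation p = 0.00028, adjusted p = 0.0126 and 0.0133 for rho). Ankrd23 and Xirp2 had r = -0.75 (rho = -0.83, permutation p = 0.00173, adjusted p = 0.0259 and 0.0126 for rho). Xirp1 and Tcap had r = -0.75 (rho = -0.76, permutation p = 0.00127, adjusted p = 0.0259 and 0.0502 for rho). Each pair joined a gene that rose with the long-gene share to one that fell with it. The share of such pairs among all genes tested was not computed, so their number cannot be read as particular to the members. With that share regressed out, Cryab and Ttn had r = -0.67 (adjusted p = 0.0522, permutation), Ankrd23 and Xirp2 r = -0.28 and Xirp1 and Tcap r = -0.44. Without replicates 6 and 7 labelled Npr1+/-, 1 pair passed, Cryab and Ttn, while Ankrd23 and Xirp2 had r = -0.74 (adjusted p = 0.0843, permutation) and Xirp1 and Tcap r = -0.59 (adjusted p = 0.144, permutation). Single libraries ended these calls too. Ankrd23 and Xirp2 had an adjusted p of 0.121 and 0.057 without replicate 1 or 3 labelled Npr1+/+ and of 0.0502 and 0.0586 without replicate 4 or 7 labelled Npr1+/-, and Xirp1 and Tcap had 0.0588, 0.0598, 0.0904 and 0.0571 without replicates 3, 4, 6 or 7 labelled Npr1+/-, by permutation. Cryab and Ttn passed without each library in turn. Without the 2 libraries farthest in the first gene of a pair, r was -0.76, -0.76 and -0.62 in the order above. Ankrd23 also fell as the regeneration and denervation markers rose (r = -0.76, permutation p = 0.00075, adjusted p = 0.03 over 40 relations, but rho = -0.71 with an adjusted p of 0.144). This call was lost without any one of 6 libraries, namely replicates 6, 7, 8, 9 and 10 labelled Npr1+/- (adjusted p = 0.119, 0.153, 0.0604, 0.198 and 0.0528 by permutation) and replicate 1 labelled Npr1+/+ (0.212), and r was -0.43 on residuals from label, cage and weight.

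**Figure D5:**
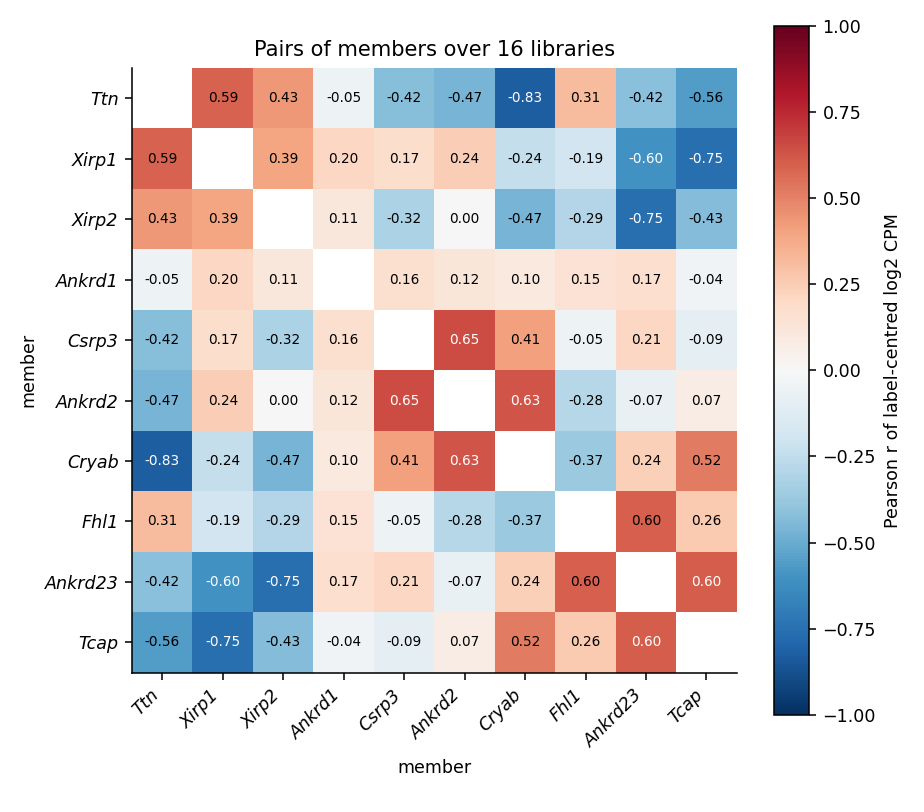
Pearson r of each pair of members over 16 libraries after the mean of each label was subtracted, blue for negative and red for positive. Ttn, Xirp1 and Xirp2 are positive with each other (0.39 to 0.59) and negative with Cryab, Ankrd23 and Tcap, and Csrp3 is highest with Ankrd2 at 0.65.

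Csrp3 went closest with Ankrd2. The pair had r = 0.65 (rho = 0.64, permutation p = 0.0101), which missed the threshold after adjustment over 45 pairs (adjusted p = 0.0913, and 0.128 for rho), and r was 0.51 without the 2 libraries farthest in Csrp3. Both genes were highest in replicate 5 labelled Npr1+/+, at 62.1 CPM of Csrp3 and 130 CPM of Ankrd2. With the other members Csrp3 had r from -0.42 (Ttn) to 0.41 (Cryab), with adjusted p from 0.315 to 0.916 by permutation. Cages hold 3 to 5 libraries, too few for a value of r within a cage. Among 12594 genes of 1 CPM or more outside the 10, those most like Csrp3 over the 16 libraries, with label means subtracted, were 1700019D03Rik (r = 0.81), Prkag2, a subunit of the energy sensor AMPK (0.79), Fam122a (0.76), A030001D20Rik (0.76) and the syndecan Sdc4 (0.76), followed by Tnfrsf12a, the TWEAK receptor (0.73), Tbrg1 (0.72), Rab35 (0.72), Ywhab (0.71) and C1qtnf7 (0.71). These are a ranking with no test, and all share the libraries and their depth. Without subtracting the label means their r with Csrp3 ran from 0.32 to 0.67.

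Cage was tested in the same model as the label from which Csrp3 was chosen, and it gave 0.0279% of all genes at an adjusted p under 0.05 and 7.36% at an unadjusted p under 0.05. Of the 10 members 0 passed adjusted, and Csrp3 (F = 4.57, unadjusted p = 0.0168, adjusted p = 0.656, edgeR) and Ankrd2 (F = 4.77, unadjusted p = 0.0145, adjusted p = 0.656) passed unadjusted. Without the label in the model the unadjusted p was 0.348 for Csrp3 and 0.101 for Ankrd2 in edgeR. Csrp3 was at 39.6 ± 15.6 CPM (SD, n = 4) in cage 676 and 33.0 ± 6.09 (SD, n = 3) in cage 677, against 27.6 ± 4.59 (SD, n = 4) in cage 675 and 26.1 ± 14.8 (SD, n = 5) in cage 678. Ankrd2 kept that order of cages, at 90.1 ± 30.3, 78.0 ± 8.34, 67 ± 3.17 and 64.3 ± 15 CPM. For both genes the single library labelled Npr1+/+ in cage 676 set the top of its cage.

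The mice labelled Npr1+/- weighed 43.6 ± 3.79 g (SD, n = 10) and their littermates 47.4 ± 4.69 g (SD, n = 6), and a slope on body weight was fitted beside label and cage. Of all genes, 0% passed an adjusted p of 0.05 with weight and 17.1% an unadjusted p, with 12.3% lower in heavier mice. Of the 10 members 0 passed adjusted and 2 passed unadjusted, both lower in heavier mice. Xirp1 changed by -1.32 on the log2 scale per 10 g (SE 0.562; unadjusted p = 0.0314, adjusted p = 0.26, edgeR) and Ankrd2 by -0.44 (SE 0.207; unadjusted p = 0.0498, adjusted p = 0.292, edgeR). Ttn had a slope of -1.06 (SE 0.898), Xirp2 of -0.89 (SE 0.474), Csrp3 of -0.39 (SE 0.257) and Ankrd23 of 0.58 (SE 0.34) per 10 g, none past the threshold.

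One library decided these 2 results. Without replicate 3 labelled Npr1+/-, at 40.1 g the lightest mouse of cage 675, 22.1% of all genes passed an adjusted p of 0.05 with body weight and 6.08% with cage. Xirp1 then had a slope of -2.05 per 10 g (adjusted p = 0.00674, edgeR) and Ankrd23 one of 1.06 (adjusted p = 0.0472), and Xirp1 also passed by cage (adjusted p = 0.0235). With the share of counts in long genes as a covariate as well, 0 genes passed by weight without this library, and Xirp1 had a slope of -1.15 (adjusted p = 0.345) and Ankrd23 one of 0.22 (adjusted p = 0.778). Body weight and the long-gene share had r = -0.32 over the 16 mice with label means subtracted (permutation p = 0.21, rho = -0.23 with permutation p = 0.394, and r = -0.20 without the 2 mice farthest in weight).

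The lists of sarcomere and stretch genes had negative median slopes with body weight and 0 genes past an adjusted p of 0.05. The median slope per 10 g was -0.86 for the 14 M-band and titin kinase genes, -0.42 for the 27 Z-disc genes, -0.34 for the 18 stretch-response genes and -0.26 for the 10 chaperones, against -0.03 for all genes, and 8, 8, 8 and 2 of them were lower at an unadjusted p under 0.05, where 12.3% of all genes were. Fhl2 of the M-band list, at 0.97, and Igf1 of the stretch list, at 0.73, were higher at that threshold. The steepest were Nrap at -1.73 (SE 0.489), the M-band proteins Myom2 at -1.64 (SE 0.43) and Myom1 at -1.36 (SE 0.391), the Z-disc crosslinker Actn2 at -1.13 (SE 0.301), the co-chaperones Bag3 at -1.17 (SE 0.321) and Unc45b at -0.69 (SE 0.273), and the transcription factors Tead1 at -1.64 (SE 0.496) and Mef2d at -1.05 (SE 0.354), with adjusted p from 0.245 to 0.249 in edgeR. Nrap, Myom2 and Myom1 were also higher in replicates 6 and 7 than in the other libraries labelled Npr1+/-, by 1.69, 1.52 and 1.37. Replicate 7 was the lightest mouse, at 36.5 g, and had the largest long-gene share, 11.8%. Slopes of these lists without that library, or with the long-gene share as a covariate, were not computed. By cage the lowest p-values in these lists belonged to Capza1 (F = 7.04), Cmya5 (F = 4.17), Obsl1 (F = 4.01), Hspb1 (F = 5.50), Hspb7 (F = 3.25), the SRF co-activator Mrtfa (F = 10.8, unadjusted p = 0.000388, adjusted p = 0.251, edgeR) and Igf1 (F = 4.69).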

How the data were processed

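Skeletal muscle RNA of 16 mice was sequenced as 52-bp pairs. The authors aligned reads to GRCm38 with STAR 2.7.2b and deposited raw counts per GENCODE M24 gene from featureCounts (1.6.4 by the labels), counting fragments with both ends aligned. The deposited gene length was used for levels per kilobase, length classes and the long-gene share. The paper's methods name a TruSeq Stranded kit and the labels a Tecan kit. Library totals limit low genes, and p-values cover the spread between mice.

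The 10 genes and all lists were chosen with earlier results of these data known. Of 55471 identifiers, 55144 had a symbol. In R 4.3.3, genes were filtered with filterByExpr, TMM-scaled and tested with edgeR 4.0.16 (quasi-likelihood, robust) on label, cage and body weight, as in the study, with Benjamini-Hochberg adjustment over 14331 genes and a threshold of 0.05. Relations used log2 CPM (prior count 1) and 100000 permutations within labels, adjusted within families of 45 pairs, 40 marker relations and 10 relations with the long-gene share. The steps were tested on simulated data. Named genes are the 10 members, Npr1, the 10 genes most like Csrp3, and of each list and contrast the 2 with the lowest p, of which 1 is not reported here. Casq2, Neb, Nppb, Myl7, Fhl2 and the genes that overlap a member were named outside this rule, after their values were seen. Promoters are from RefSeq (GRCm38.p6).

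Alternatives were other covariates, the replicate number in place of cage, other scalings, filters and thresholds, thinning, DESeq2 1.42.0, limma 3.58.1 (voom) and leaving out each library; the long-gene covariate and leaving out the libraries with the most Ttn were chosen after seeing the data. Libraries that share a replicate number differ in genotype label and body weight, so they are not from the same animal. Their deviations from the label means had r of 0.0312 to 0.162, against -0.401 to 0.495 for other pairs. These r values cannot decide whether the numbers pair the mice in another way.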

Additional observations from a re-analysis of the deposited data

Results flagged for a closer look

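Fhl1 in replicate 9 labelled Npr1+/- had a log2 CPM of 10.29, and its gap to the next library of that label was 0.539 of the range of the 10 libraries. The value was the single one among 20 groups (10 genes in each label) at such a distance, and about 1 in 20 groups would be picked out by chance alone.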

How the results depend on the processing

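The label difference of Csrp3, which chose it, ran from -0.96 to -0.55 on the log2 scale over 32 alternatives. Ankrd2 (-0.54 to -0.27) and Fhl1 (-0.64 to -0.36) kept their sign, and 0 members passed the adjusted threshold by label in any of them. The label difference of Xirp2 was 0.27 with the label alone, 0.25 without body weight and 0.43 with the replicate block, that of Ankrd23 was 0.0398 without replicates 6 and 7, 0.14 with the long-gene covariate and 0.13 with it and without replicate 3. Leaving out 1 library gave -0.19 to 0.0624 for Ankrd23, -0.51 to 0.43 for Xirp2, -0.35 to 0.0098 for Cryab and -0.0089 to 0.92 for Ttn. For Xirp1 it gave 0.18 to 0.69, and the other alternatives gave 0.09 to 1.01. The value of 1.01 was without body weight (unadjusted p = 0.0208, adjusted p = 0.869, edgeR). The slope per 10 g, without cage, was 0.0375 for Csrp3, -0.0789 for Fhl1, 0.0702 for Cryab and -0.0835 for Tcap; without label it was 0.18 for Csrp3 and 0.013 for Cryab; with the replicate block it was -0.16 for Ankrd23, -0.13 for Fhl1, 0.28 for Ttn and -0.30 for Tcap; without replicates 6 and 7 it was 0.79 for Ttn and -0.0589 for Tcap, and with the long-gene covariate 0.86 and -0.18. With that covariate and without replicate 3 it was 0.57 for Ankrd1, 0.21 for Xirp2, 0.27 for Ttn and -0.13 for Tcap. Leaving out 1 library gave -0.33 to 0.21 for Ankrd1, -1.89 to 0.73 for Ttn, -0.13 to 0.38 for Tcap and -0.31 to 0.10 for Cryab. The slope of Xirp1 was -0.185 without cage, -0.0183 with the replicate block and -1.69 without label. It ran from -2.05 to -0.75 without 1 library.

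Genes past the threshold by label were 2 with the replicate block, 6 with DESeq2, 8 without a filter, 2 without replicates 6 and 7, 151 unadjusted (3 members) and 0 to 3 without 1 library. By cage, against 4, they were 0 with library size only, 78 with DESeq2, 1 with voom, with 10 counts in every library or with thinning, 23 without a filter, 9 with the long-gene covariate, 1055 unadjusted (2 members) and 0 to 869 without 1 library (0 to 1 members). By weight they were 333 without label, 1 with the replicate block, 2449 unadjusted (2 members) and 0 to 3158 without 1 library (0 to 2 members). Pairs of members past it, against 3, were 7 without centring, 8 on residuals, 1 without replicates 6 and 7, 5 with the long-gene share regressed out and 1 to 4 without 1 library. Relations with marker lists were 0 on residuals, without replicates 6 and 7 and with the share regressed out, and 0 to 1 without 1 library. Where a count moved, the cause was not tested.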

Other observations

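Other cell types of the muscle were read through their markers, with 0 markers past an adjusted p of 0.05 between the labels in edgeR; the unadjusted counts follow. The 10 tendon and matrix markers summed to 945 to 2120 CPM in the libraries labelled Npr1+/- and to 1210 to 1550 CPM in those labelled Npr1+/+, with 8 of 10 higher and 0 past an unadjusted p of 0.05. The 6 endothelial markers summed to 159 to 497 against 182 to 234 CPM, the 6 smooth muscle markers to 3050 to 6370 against 3000 to 5560 CPM and the 6 macrophage markers to 39.6 to 142 against 63.9 to 117 CPM, also with 0 past an unadjusted p of 0.05. The 6 adipocyte markers summed to 280 to 1110 against 458 to 812 CPM with 5 of 6 lower, and the 5 erythroid markers to 88.0 to 510 against 192 to 320 CPM with 5 of 5 higher and 2 past an unadjusted p of 0.05. With body weight, the median slope per 10 g was 0.89 for the adipocyte, 0.58 for the macrophage and 0.86 for the erythroid markers and -0.76 for the endothelial markers, with 0 markers past an adjusted p of 0.05.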
